A study of Homo sapiens with 4 samples.

Results

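Nuclear pore complex genes were followed through siRNA against DAXX in human neuroendocrine tumour cells. The set held 31 genes whose symbol in the platform annotation was that of a nucleoporin. All 31 had a probe set, and all 31 were among the 14648 genes, of 19775 with a named probe set, that passed a filter on low signal. Each gene was read from the brightest of its probe sets, by mean over the 4 arrays. The members had 77 probe sets in all, of which 67 passed the filter.

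Total RNA was measured on 4 Affymetrix arrays, 1 per sample. The groups were NCI-H727 cells with DAXX siRNA (DAXX-KD), NCI-H727 cells with negative control siRNA, QGP1 cells with DAXX siRNA and QGP1 cells with negative control siRNA. All 4 samples were electroporated, with siRNA at a final 50 nM. NCI-H727 is a bronchial and QGP1 a pancreatic neuroendocrine tumour line, and DAXX is a histone chaperone that deposits the variant H3.3 with ATRX. Each group is 1 sample, the time between transfection and harvest is not given in the sources used here, and the labels do not say whether the DAXX siRNAs they name were pooled. The description of all 4 samples speaks of QGP1 cells with high ALDH and the source field of the NCI-H727 samples names QGP1, so the assignment of lines rests on the titles.

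The DAXX signal was 6.14 in the DAXX-KD array and 7.35 in the control array of NCI-H727, and 6.56 in the DAXX-KD array and 8.52 in the control array of QGP1, on the log2 scale. In both lines all 5 neuroendocrine markers looked at, CHGA and INSM1 among them, lay above the filter level of 4.85. Of the 3 measured lung markers, 2 went against the titles. NKX2-1, the lung and thyroid transcription factor, read 3.23 and 3.35 in the arrays titled NCI-H727, under the filter level, against 8.38 and 8.77 in those titled QGP1. GRP, a peptide of lung neuroendocrine cells, read 4.12 and 5.37 in the arrays titled NCI-H727, against 11.76 and 12.80 in those titled QGP1. The 4 measured islet markers were split. NKX2-2 read 9.25 and 9.17 in the arrays titled NCI-H727, against 5.93 and 4.80 in those titled QGP1. PAX6 (limma difference -1.31, adjusted p = 0.00196) and ISL1 (-0.65, adjusted p = 0.0142) were lower in the arrays titled NCI-H727, on the side of the titles, and PDX1 differed by 0.22 (adjusted p = 0.213). The line names below are those of the titles; a comparison of DAXX-KD with control within a line takes only the name of the line from them. The leukocyte marker PTPRC, the fibroblast marker COL3A1 and the endothelial marker CDH5 lay under the filter level on all 4 arrays. At or above it on each array were 1 or 2 of 3 measured leukocyte markers, 2 of 4 fibroblast and 2 of 3 endothelial ones, among them COL1A1 at 7.25 to 7.66. The endothelial marker PECAM1 read 5.64 in the DAXX-KD array and 5.43 in the control array of NCI-H727, and 6.80 in the DAXX-KD array and 5.74 in the control array of QGP1. The part of these markers in the results was not tested.

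The nuclear pore is a channel through the nuclear envelope, built from many copies of proteins called nucleoporins. Scaffold rings shape the opening, membrane nucleoporins anchor it, and nucleoporins of the channel carry disordered repeats of phenylalanine and glycine that bind transport receptors. Filaments on the cytoplasmic face release exported RNA, and the basket on the nuclear face contacts chromatin and RNA.

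The promoters of NUP58, of its channel partners NUP54 and NUP62 and of the basket gene TPR are shown because the results below turn on NUP58 against its partners and on TPR. Each is the 250 bases before the transcription start, read 5′ to 3′ along the gene, from RefSeq on GRCh38.p14, with motif letters in capitals.
NUP58, chr13:25301375-25301624, plus strand: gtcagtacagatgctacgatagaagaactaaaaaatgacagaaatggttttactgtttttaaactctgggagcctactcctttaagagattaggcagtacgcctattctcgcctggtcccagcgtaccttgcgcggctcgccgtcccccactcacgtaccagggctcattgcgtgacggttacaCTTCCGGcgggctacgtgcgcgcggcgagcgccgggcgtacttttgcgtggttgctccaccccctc
NUP54, chr4:76148398-76148647, minus strand: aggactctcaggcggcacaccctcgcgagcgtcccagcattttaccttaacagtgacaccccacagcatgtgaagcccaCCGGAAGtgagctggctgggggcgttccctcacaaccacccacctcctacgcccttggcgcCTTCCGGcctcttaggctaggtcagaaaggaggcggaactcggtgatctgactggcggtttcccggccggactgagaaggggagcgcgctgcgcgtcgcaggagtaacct
NUP62, chr19:49929505-49929754, minus strand: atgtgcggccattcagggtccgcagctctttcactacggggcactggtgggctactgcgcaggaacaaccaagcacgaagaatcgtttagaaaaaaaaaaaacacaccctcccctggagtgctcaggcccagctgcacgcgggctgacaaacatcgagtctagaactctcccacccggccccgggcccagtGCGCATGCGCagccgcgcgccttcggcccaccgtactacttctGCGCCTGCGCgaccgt
TPR, chr1:186375254-186375503, minus strand: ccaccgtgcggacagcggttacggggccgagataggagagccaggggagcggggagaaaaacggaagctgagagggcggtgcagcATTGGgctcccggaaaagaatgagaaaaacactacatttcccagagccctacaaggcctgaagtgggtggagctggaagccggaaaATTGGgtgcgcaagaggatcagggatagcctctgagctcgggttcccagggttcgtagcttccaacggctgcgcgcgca

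Of the 31 members, 28 had an entry in this promoter table, and where a gene had several entries the first was taken. The ETS core CCGGAAG, searched on both strands, was in 12 of the 28 member promoters (42.9%) and in 14.4% of 11701 promoters of genes past the filter. It began 66 bases before the start of NUP58 and 171 and 110 bases before that of NUP54. The NRF1 motif, on both strands, was in 4 member promoters (14.3%), NUP62 with a pair of matches among them, and in 9.37% of the promoters of genes past the filter. CCAAT, on both strands, was in 10 member promoters (35.7%), with a pair of matches in TPR, and in 34.5% of promoters of genes past the filter. TATAAA on either strand was in 0 of the 28 and in 6.26% of the larger set. Promoters of the members had a median GC content of 62.8%, against 64.4% for genes past the filter. No match overlapped another in the 4 promoters shown. A match is a run of letters and was not tested as a binding site.

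NUP58, a channel nucleoporin with phenylalanine-glycine repeats that binds NUP62 and NUP54, was the 1 member at least 2-fold apart in either line, higher with DAXX siRNA in both, at 1 of its 4 probe sets. Its probe set 204435_at read 9.65 in the DAXX-KD array and 7.70 in the control array of NCI-H727. In QGP1 it read 8.67 in the DAXX-KD array and 7.48 in the control array. Both DAXX-KD arrays lay above both control arrays, by 3.89-fold in NCI-H727 (log2 difference 1.96) and 2.28-fold in QGP1 (1.19). This probe set stands for NUP58 through its DAXX-KD signal, since in both control arrays 225047_at was brighter, at 7.76 against 7.70 in NCI-H727 and 7.95 against 7.48 in QGP1. With the brightest probe set taken over the 2 control arrays, a choice added after the data were seen, NUP58 differed by 0.24 in NCI-H727 and 0.0054 in QGP1, and 0 members were at least 2-fold higher in either line. NUP58 was the 1 member, and 1 of 194 genes of the 14648, whose probe set changed with that choice. At least 2-fold higher were 0.177% of all genes in NCI-H727 and 0.259% in QGP1.

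The 3 other NUP58 probe sets did not show this. Probe set 225047_at read 8.01 in the DAXX-KD array and 7.76 in the control array of NCI-H727, and 7.95 in both arrays of QGP1. Probe set 223984_s_at read 7.34 (DAXX-KD) and 7.02 (control) in NCI-H727, and 7.40 (DAXX-KD) and 7.32 (control) in QGP1. Probe set 241425_at read 6.28 (DAXX-KD) and 6.32 (control) in NCI-H727 and 6.63 (DAXX-KD) and 6.88 (control) in QGP1. The differences of these 3 ran from -0.04 to 0.32 in NCI-H727 and from -0.25 to 0.08 in QGP1. All 4 NUP58 probe sets lay above the filter level on every array (4.85), a level set by rank and not a detection call. The mean of the 4 gave 0.62 in NCI-H727 and 0.25 in QGP1. Where the probes of each set lie in the transcripts was not analysed here.

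As a yardstick, probe sets of 1 gene disagreed with a within-gene SD of 0.275 in NCI-H727 and 0.202 in QGP1 over all genes. Such a split was not peculiar to NUP58. In NCI-H727, 14 genes at least 2-fold higher had another probe set past the filter, NUP58 among them. Of these 14, 6 had no other probe set at least 1.5-fold higher, NUP58 included. In QGP1 this was so for 7 of 12, again with NUP58 included. This count was chosen after the data were seen.

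**Figure D1:**
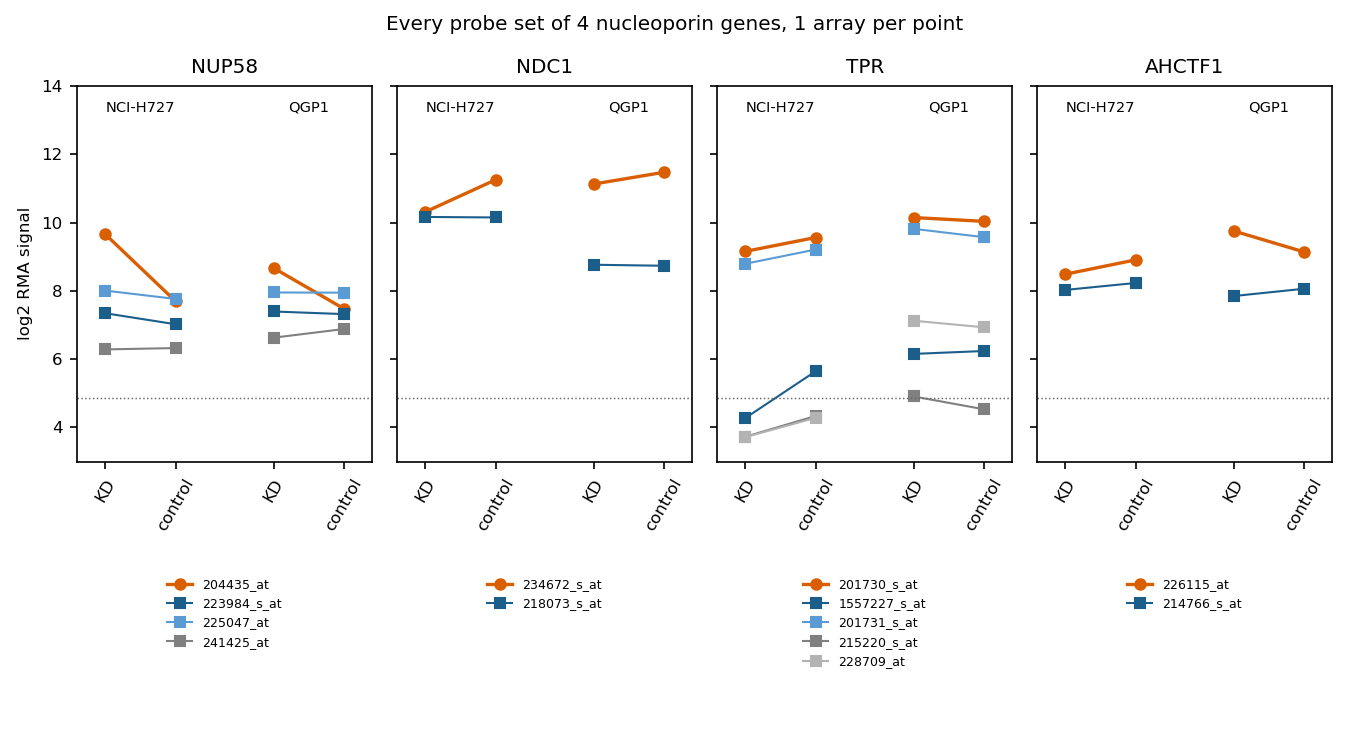
Log2 RMA signal of every probe set of NUP58, NDC1, TPR and AHCTF1 on the DAXX-KD and control array of each line, 1 array per point, with the probe set that represents the gene in orange and the filter level of 4.85 dotted. Of the NUP58 traces only 204435_at is at least 1.5-fold higher with DAXX siRNA, whereas all 5 TPR probe sets lie lower in the DAXX-KD than in the control array of NCI-H727.

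The channel partners of NUP58 differed little. NUP62, the central scaffold of the channel complex, read 9.17 in the DAXX-KD array and 9.29 in the control array of NCI-H727, and 9.98 (DAXX-KD) and 10.16 (control) in QGP1. NUP54 read 10.17 (DAXX-KD) and 10.02 (control) in NCI-H727, and 10.28 (DAXX-KD) and 10.15 (control) in QGP1. NUP98, whose transcript encodes both the channel protein NUP98 and the scaffold protein NUP96, differed by 0.18 in NCI-H727 and 0.26 in QGP1. At these probe sets NUP62 was on the lower side and NUP54 and NUP98 on the higher side in both lines. The second NUP62 probe set past the filter differed by -0.06 in NCI-H727 and 0.12 in QGP1. The other NUP98 probe sets past the filter ran from -0.18 to 0.01 in NCI-H727 and from -0.07 to 0.14 in QGP1.

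Membrane nucleoporins hold the ring in the envelope. NDC1, which spans the membrane and links it to the inner ring, was the 1 member at least 1.5-fold lower in either line. Its probe set 234672_s_at read 10.31 in the DAXX-KD array and 11.25 in the control array of NCI-H727, 1.92-fold lower, and 11.13 (DAXX-KD) and 11.47 (control) in QGP1. The second NDC1 probe set, 218073_s_at, read 10.16 (DAXX-KD) and 10.15 (control) in NCI-H727 and 8.76 (DAXX-KD) and 8.73 (control) in QGP1. NDC1 was thus lower in both lines at 1 probe set and level at the other. At least 1.5-fold lower were 4.96% of all genes in NCI-H727 and 1.32% in QGP1. POM121 differed by 0.36 in NCI-H727 and 0.14 in QGP1 at a probe set of its own, and by -0.09 in NCI-H727 and -0.35 in QGP1 at one annotated to both POM121 and POM121C. NUP210 was lower at all 5 of its probe sets in NCI-H727, by -0.28 to -0.10, and 2 of the 5 were lower in QGP1. AAAS, the protein lost in triple A syndrome, differed by -0.07 in NCI-H727 and 0.22 in QGP1.

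TPR, whose coiled coils form the basket filaments, had lower DAXX-KD than control signal in NCI-H727 at all 5 probe sets, and in QGP1 at 1 of them. The representative 201730_s_at read 9.16 in the DAXX-KD array and 9.56 in the control array of NCI-H727, and 10.15 (DAXX-KD) and 10.04 (control) in QGP1. A second, 201731_s_at, read 8.79 (DAXX-KD) and 9.21 (control) in NCI-H727, and 9.82 (DAXX-KD) and 9.57 (control) in QGP1. These 2 gave nearly the same difference in NCI-H727, -0.41 and -0.42, and were on the higher side in QGP1. The 2 other probe sets past the filter, 1557227_s_at and 228709_at, differed by -1.37 and -0.56 in NCI-H727, with DAXX-KD values of 4.27 and 3.72 under the filter level, and by -0.08 and 0.19 in QGP1. NUP153, which anchors TPR to the pore, differed by 0.01 in NCI-H727 and -0.04 in QGP1. NUP50, a basket protein that helps importins release cargo, differed by -0.28 in NCI-H727 and 0.19 in QGP1.

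The outer ring, or Y complex, is the scaffold that coats the curved membrane. Of its 9 genes, 5 were lower and 4 higher in DAXX-KD NCI-H727, with a median difference of -0.15, and 5 were higher and 4 lower in QGP1, with a median of 0.05. AHCTF1 (ELYS), which brings the Y complex to chromatin as nuclei reform, had opposite signs in the lines. It read 8.49 in the DAXX-KD array and 8.91 in the control array of NCI-H727, and 9.75 (DAXX-KD) and 9.14 (control) in QGP1. With NUP58 it was 1 of the 2 members at least 1.5-fold higher in QGP1, at 1.53-fold, where 1.74% of all genes were. Its second probe set read 8.03 (DAXX-KD) and 8.23 (control) in NCI-H727 and 7.85 (DAXX-KD) and 8.06 (control) in QGP1, on the lower side in both, so the sign in QGP1 depended on the probe set. NUP107, a Y complex scaffold, differed by -0.41 in NCI-H727 and -0.04 in QGP1. NUP160, another Y complex scaffold, differed by -0.28 in NCI-H727 and -0.15 in QGP1, while the 2 other NUP160 probe sets were on the higher side in both lines. NUP133, NUP85, NUP43, NUP37, SEH1L and SEC13 stayed between -0.22 and 0.18 in both lines.

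Inner ring genes, which line the pore and hold the channel proteins, all differed by less than 1.5-fold in both lines. NUP93, the hub of the inner ring, differed by -0.39 in NCI-H727 and -0.10 in QGP1. NUP205, NUP188, NUP155 and NUP35 lay between -0.14 and 0.18. On the cytoplasmic side, RANBP2, a large filament protein that binds Ran and acts as a SUMO ligase, was lower at all 4 probe sets in NCI-H727, by -0.38 to -0.20, and at 3 of 4 in QGP1. RANBP2 has near-identical relatives (the RGPD genes), so its probe sets may read more than 1 gene. NUP214, which docks export complexes, differed by -0.10 in NCI-H727 and 0.38 in QGP1, where its 2 other probe sets were on the lower side. Its partner NUP88 differed by 0.24 in NCI-H727, with a second probe set, near the filter level, at -0.33, and by 0.12 in QGP1. GLE1, an activator of the RNA helicase of mRNA export, differed by -0.22 in NCI-H727 and -0.0059 in QGP1, and by -0.11 in NCI-H727 and 0.68 in QGP1 at another probe set. RAE1, which binds NUP98, and NUP42, which binds GLE1, stayed between -0.13 and 0.04.

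**Figure D2:**
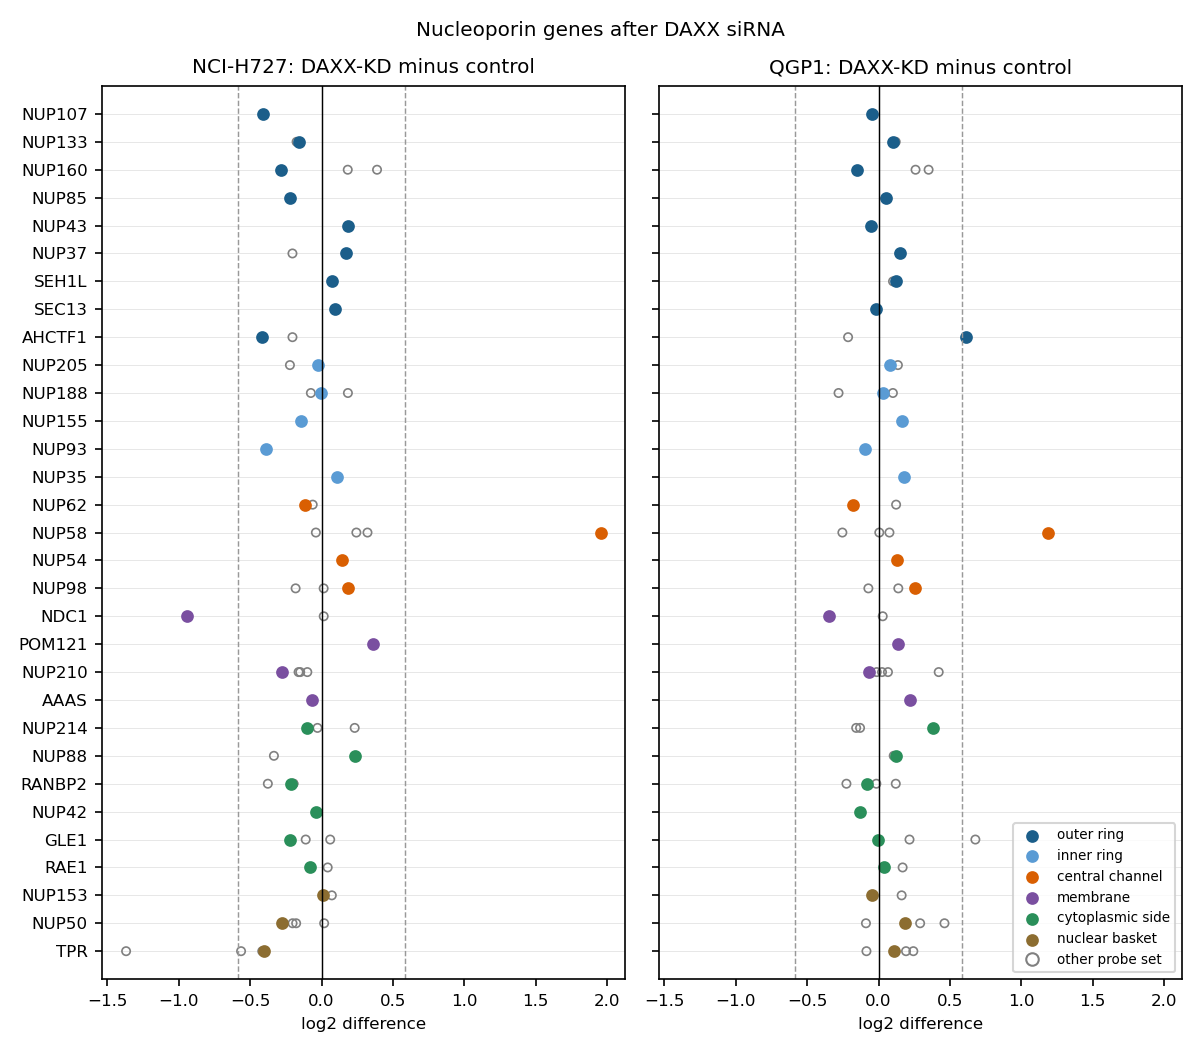
DAXX-KD minus control log2 difference of each of the 31 nucleoporin genes in NCI-H727 (left) and QGP1 (right), filled points coloured by place in the pore, open points for other probe sets past the filter, dashed lines at 1.5-fold. Filled points past the dashed lines are NUP58 and NDC1 in NCI-H727 and NUP58 and AHCTF1 in QGP1.

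Over all 31 members the median difference was -0.08 in NCI-H727, against 0.02 over all genes past the filter, and 0.08 in QGP1, against 0.02. Without NUP58 the medians were -0.09 in NCI-H727 and 0.07 in QGP1. In NCI-H727 20 of 31 members were lower with DAXX siRNA (64.5%, against 47.3% of all genes), and in QGP1 19 of 31 were higher (61.3%, against 53.5%). At least 1.5-fold higher were 1 member in NCI-H727, where 1.6% of all genes were, and 2 in QGP1; at least 1.5-fold lower were 1 in NCI-H727 and 0 in QGP1. At least 2-fold lower were 0 members in either line, where 1.32% of all genes were in NCI-H727 and 0.232% in QGP1. The difference had the same sign in both lines for 17 members (54.8%, against 51.4% of all genes). A lower signal in bulk RNA cannot tell fewer cells that express a gene from less RNA per cell.

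**Figure D3:**
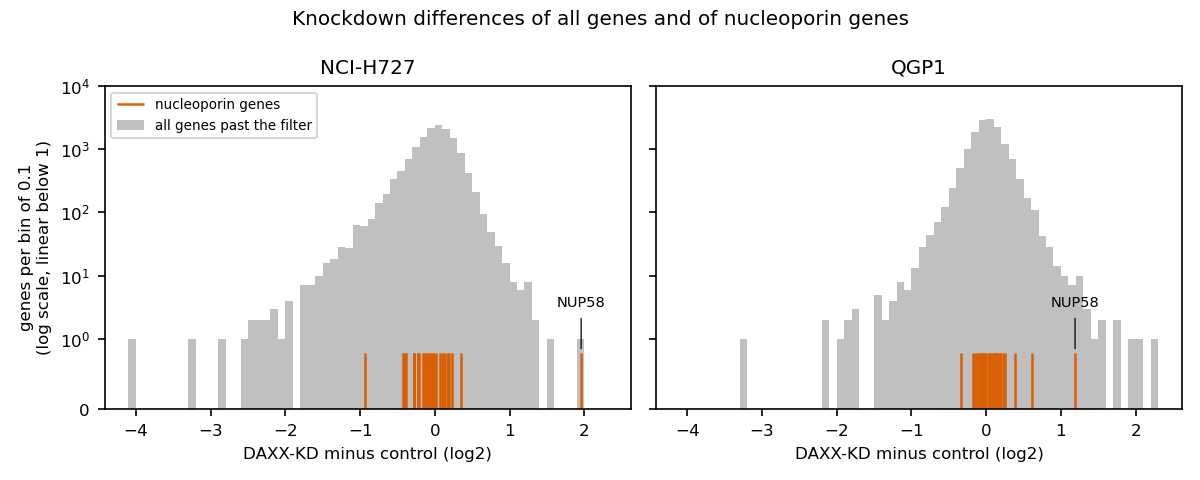
Genes per bin of 0.1 in DAXX-KD minus control log2 difference (grey, log axis, linear below 1) for the 14648 genes past the filter in NCI-H727 (left) and QGP1 (right), with the 31 nucleoporin genes as orange ticks. NUP58, at 204435_at, lies at the upper end in NCI-H727, and most other ticks fall within the bulk of the genes.

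With 1 array per group there was no replicate within a line, so the lines served as repeats in a joint limma fit, with terms for treatment and cell line. It called 0 of the 31 members at an adjusted p of 0.05, as it called 0% of all genes in either direction. At an unadjusted p under 0.05, limma had 1 member on the higher side, NUP58, and 1 on the lower, NDC1, where 2.8% and 4.12% of all genes were. The fit gave NUP58, at 204435_at, a difference of 1.57 (SE 0.21, adjusted p = 0.374 in limma, higher in 2 of 2 lines). No gene had a smaller adjusted p, and DAXX itself (-1.59, limma adjusted p = 0.374) shared it and was not called. Since 204435_at stands for NUP58 through its DAXX-KD signal, this test used values that had selected the probe set. With the probe set brightest in the 2 control arrays the joint difference of NUP58 was 0.12. The fit gave NDC1, at 234672_s_at, -0.64 (SE 0.18, limma adjusted p = 0.587, lower in 2 of 2 lines). Neither NUP58 nor NDC1 is shown to be affected, since neither passed an adjusted p of 0.05. The other 29 members are not shown to be unaffected, since SEs of the members ran from 0.13 to 0.26. Nothing in the labels says that arrays came from separate cultures of a line.

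The arrays titled NCI-H727 and QGP1 differed at more nucleoporin genes than DAXX-KD and control. Every direction between the lines is that of the titles and would turn if the titles were exchanged. In the line term of the same limma fit, 18 of 31 nucleoporin genes passed an adjusted p of 0.05, 5 higher and 13 lower in NCI-H727. These are 16.1% and 41.9% of the members, against 23.2% and 25.1% of all genes, and the members' median was -0.39, against 0.05. The sign was the same between DAXX-KD arrays and between control arrays for 28 of 31 members. The share over all genes was not counted, so this is not shown to be particular to nucleoporin genes.

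NUP107 was lowest in the arrays titled NCI-H727 relative to those titled QGP1. It read 10.15 and 10.56 in the NCI-H727 arrays, against 12.64 and 12.69 in the QGP1 arrays, 4.94-fold lower (log2 -2.31, SE 0.15, limma adjusted p = 0.000263). NUP37, a peripheral member of the same Y complex, read 11.70 and 11.52 in the NCI-H727 arrays, against 9.73 and 9.58 in the QGP1 arrays, 3.87-fold higher (1.95, SE 0.13, limma adjusted p = 0.000263). The lines did not overlap for either gene, and genes of the Y complex stood at both ends of the order.

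Also lower in NCI-H727 were NUP42 (-1.34), NUP210 (-1.25), NUP205 (-0.97), NUP62 (-0.84), RANBP2 (-0.81), NUP133, TPR, NUP93, NUP85, NUP188, SEH1L and NUP88. The other genes that were higher in NCI-H727 were NUP43, NUP98 (0.94), NUP160 (0.89) and AAAS (0.49). Of the 18, 12 had several probe sets past the filter. All of a gene's probe sets pointed the same way for 8 of these 12, a share not counted over all genes. They split for NUP133, NUP88, NUP98 and SEH1L. The second probe set lay near the filter level for NUP133 (4.76 to 5.25) and NUP88 (4.71 to 5.26). TPR probe sets differed by -3.03 to -0.69, so the size of its line difference varied with the probe set. At the probe set that stands for it, NUP58 was 0.99 higher in NCI-H727 between DAXX-KD arrays and 0.22 higher between control arrays. It did not pass (0.60, SE 0.21, limma adjusted p = 0.0659). Of the NUP58 probe sets, 1 was higher and 3 were lower in NCI-H727, the lowest by -0.45.

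**Figure D4:**
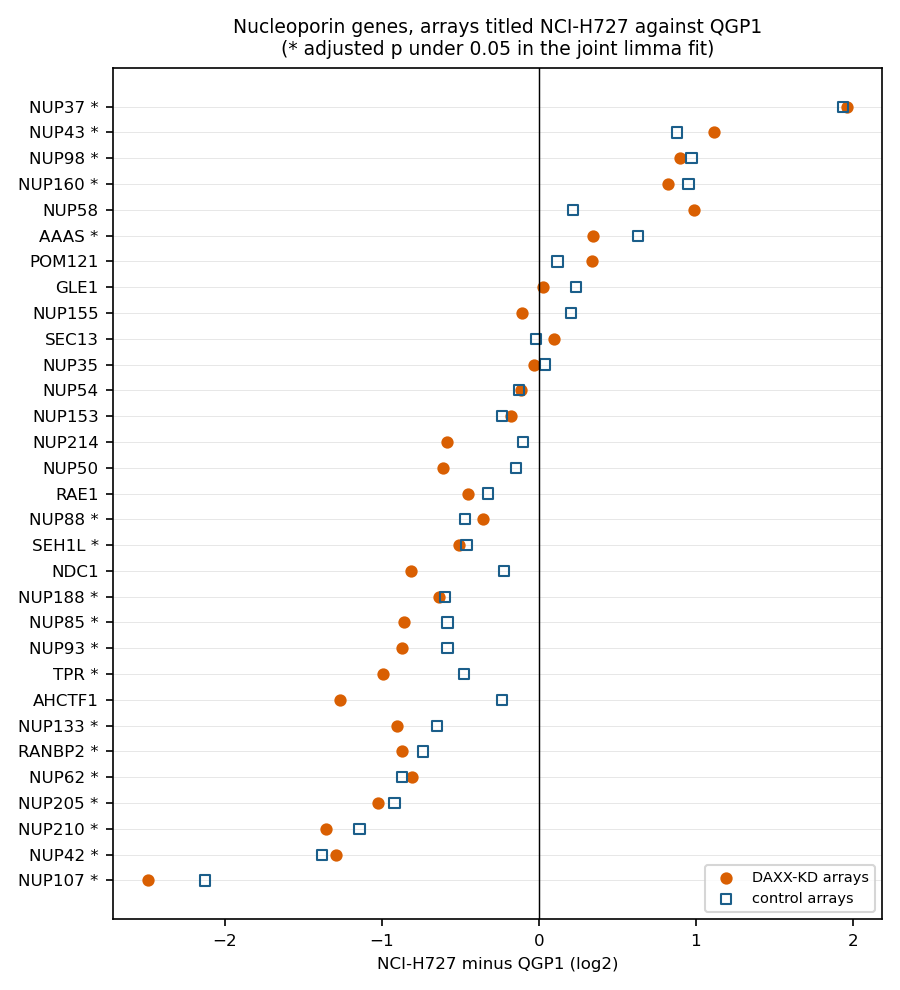
NCI-H727 minus QGP1 log2 difference of each of the 31 nucleoporin genes between DAXX-KD arrays (filled circles) and between control arrays (open squares), ordered by the mean of both, with an asterisk where the joint limma fit gave an adjusted p under 0.05. NUP37 is at the top and NUP107 at the bottom. The 2 marks of a gene lie on the same side of 0 for 28 genes, a share not counted over all genes.

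Carriers that move cargo through the pore were set beside the nucleoporins. Of 34 nuclear transport factors, 31 passed the filter, with a median difference of -0.04 in NCI-H727 and 0.01 in QGP1. The 1 gene at least 1.5-fold apart in either line was XPOT, the exporter of transfer RNA. At least 1.5-fold lower in NCI-H727 were 4.96% of all genes. XPOT read 10.71 in the DAXX-KD array and 11.65 in the control array of NCI-H727, and 10.69 (DAXX-KD) and 11.16 (control) in QGP1. Its second probe set read 6.68 (DAXX-KD) and 8.55 (control) in NCI-H727, and 9.38 (DAXX-KD) and 9.96 (control) in QGP1. XPOT was thus lower at both probe sets in both lines. Its joint difference did not pass (limma adjusted p = 0.524 over all genes). Next in size in NCI-H727 came XPO4, an exporter of proteins (-0.50, second probe set 0.24), the importin alpha KPNA5 (-0.45) and the Ran-binding protein RANBP1 (-0.43), and in QGP1 the importin TNPO2 (-0.51), KPNA6 (-0.32) and RANBP1 (-0.26). The 2 other RANBP1 probe sets were on the higher side in both lines. They were far dimmer, at 5.50 to 6.15, against 11.17 to 12.18 at the representative. The joint limma fit called 0 of 31 transport factors. At an unadjusted p under 0.05, limma had 0 higher and 2 lower, where 2.8% and 4.12% of all genes were. Of the nucleoporin genes outside the set, POM121C differed by -0.40 in NCI-H727 and -0.22 in QGP1, and NUP62CL by -0.07 in NCI-H727 and 0.09 in QGP1.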

How the data were processed

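Total RNA of 4 cell line samples was labelled with a 3' IVT kit and measured on 1 array each, per the labels' protocols. The deposited log2 values are the authors' RMA output; per the submitters' processing notes the software was affy 1.40.0 under R 3.0.3. RMA background-corrects, quantile-normalizes and summarises probes, so values are relative to the rest of the array and a shift shared by most genes is removed. The arrays had medians of 5.31 to 5.36. Names came from the platform's annotation, in which 41091 of 54613 probe sets had 1 symbol, 1801 several and 11721 none; the last 2 kinds were left out. The filter on low signal removed genes whose mean fell short of the 40th percentile over probe sets, 4.85. The number of arrays limits the precision.

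Groups came from the titles. The joint fit used limma 3.58.1 in R 4.3.3 on all 4 arrays, with 1 residual degree of freedom and 4.18 prior ones, two-sided, Benjamini-Hochberg over all 14648 genes at 0.05, and was tested on simulated data. Its p-values rest on the spread between these arrays, and through the prior on that of all genes. They hold no spread between replicates of a line and treatment. Within a line, differences were described by size at 1.5-fold and 2-fold. All members may be named; of the comparison lists, the 4 genes with the largest difference in each line were named. The members and lists were chosen with earlier results of these data known. Repeat content of the member proteins was not analysed here. Alternatives were no filter, averaging the probe sets of each gene, no x_at or s_at probe sets, a second quantile normalization, intensity-dependent centring, an intensity trend, no cell line block and, added after the data were seen, the probe set brightest in the 2 control arrays.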

Additional observations from a re-analysis of the deposited data

Results flagged for a closer look

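AHCTF1, which brings the Y complex to chromatin, differed by -0.42 between the DAXX-KD and control arrays of NCI-H727. It differed by 0.61 between those of QGP1, the opposite direction. Both differences exceeded in size the within-gene SD of probe sets in their line. That SD is a spread between probe sets on the same arrays. It holds no spread between arrays or cultures, so it cannot tell either difference from such noise. The difference between the lines was not tested, since each rests on 1 array per group. The second AHCTF1 probe set was on the lower side in both lines (-0.20 in NCI-H727 and -0.21 in QGP1).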

How the results depend on the processing

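With the probe set brightest in the 2 control arrays, added after the data were seen, NUP58 differed by 0.24 in NCI-H727 and 0.0054 in QGP1, its joint difference was 0.12 (limma adjusted p = 0.948), its line difference turned (-0.065), 0 members were at least 1.5-fold higher in NCI-H727 and 1 in QGP1, and 0 at least 2-fold higher in either. Averaging the probe sets of each gene, dim ones included, gave NUP58 a difference of 0.62 in NCI-H727 and 0.25 in QGP1, 0 members were at least 2-fold higher in either line, and 0 were at least 1.5-fold higher in QGP1. Under that setting the joint DAXX-KD difference changed sign for NUP160 (0.12), AHCTF1 (-0.056), NUP205 (-0.0088), NUP188 (-0.0075), GLE1 (0.10), RAE1 (0.073), NUP153 (0.024) and NUP50 (0.083), none of which limma called in either setting, and the NCI-H727 minus QGP1 difference for SEH1L (0.032), NUP58 (-0.021), NUP50 (0.22) and NDC1 (0.44, then passing at a limma adjusted p of 0.0312). Without x_at and s_at probe sets 22 members remained; 0 were at least 1.5-fold lower in NCI-H727, 8 were lower in NCI-H727 than QGP1 in limma, and signs changed for NUP88 (DAXX-KD -0.11, line 0.32) and NUP214 (line 0.23), while the line difference of TPR went to -3.03, against -0.73. Intensity-dependent centring left 1 member at least 1.5-fold higher in QGP1, and a second quantile normalization turned the line difference of NUP35 (-0.0079). The cause of these changes was not tested, beyond the fewer probe sets where some were left out. The medians of the members ran from -0.12 to -0.0082 in NCI-H727 and from 0.05 to 0.11 in QGP1 over these settings. Line calls of limma ran from 4 to 6 members higher and from 8 to 16 lower in NCI-H727; averaging probe sets lost NUP133, SEH1L, NUP188, NUP93 and NUP88 and gained NDC1 and NUP214, no filter lost AAAS and NUP88, an intensity trend gained AHCTF1, NUP58, NDC1 and RAE1, a second quantile normalization gained RAE1, and leaving out x_at and s_at probe sets lost NUP88 among the 22 members measured. The joint fit, which pairs DAXX-KD with control within each line, called 0 members for DAXX-KD under every alternative run; without the cell line block the SE of NUP58 was 0.43, against 0.21 with it, and 0 members were called. The labels carry no replicate numbers for any other pairing, and leaving out any array leaves the joint fit no residual degree of freedom. The number of arrays and dim probe sets limit all values.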

Other observations

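Genes of the nuclear lamina and envelope surround the pore. All 16 of this list passed the filter, with a median DAXX-KD minus control difference of -0.04 in NCI-H727 and -0.02 in QGP1. At least 1.5-fold lower in NCI-H727 were 2 of the 16, LMNB2 and SYNE2, where 4.96% of all genes were, and 1 of them at least 2-fold, where 1.32% of all genes were. In QGP1 0 of the 16 were 1.5-fold apart in either direction, where 1.74% of all genes were higher and 1.32% lower. LMNB2, lamin B2, read 8.75 in the DAXX-KD array and 9.55 in the control array of NCI-H727, and 8.86 (DAXX-KD) and 9.35 (control) in QGP1, lower in both lines at its 1 probe set. SYNE2, which ties the nucleus to the cytoskeleton, read 6.30 (DAXX-KD) and 7.39 (control) in NCI-H727, 2.13-fold lower with DAXX siRNA, and 7.95 (DAXX-KD) and 7.97 (control) in QGP1. Its other probe set past the filter, near the filter level at 4.85 to 4.93, differed by -0.01 in NCI-H727 and -0.04 in QGP1. LMNA, lamin A and C, differed by -0.11 in NCI-H727 and 0.36 in QGP1, where each of the 5 LMNA probe sets that passed the filter was on the higher side. TMPO, which binds lamins and chromatin, differed by -0.33 in NCI-H727, where its 3 other probe sets past the filter ran from -0.71 to 0.35, and LEMD3, an inner membrane protein, by -0.25. In QGP1, SUN2, which joins nesprins to lamins, differed by 0.32 and LBR, the lamin B receptor, by 0.16. The joint limma fit called 0 of the 16, with 0 higher and 1 lower, LMNB2, at an unadjusted p under 0.05 (adjusted p = 0.507). Of all genes 2.8% were higher and 4.12% lower at that unadjusted p in limma.

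In the line term of the limma fit, 11 of these 16 genes passed an adjusted p of 0.05, 6 higher (37.5%) and 5 lower (31.2%) in NCI-H727, and of the 31 transport factors 10 passed, 3 higher (9.68%) and 7 lower (22.6%). Of all genes 23.2% passed as higher and 25.1% as lower.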
